A study of Mus musculus with 2 samples.

Results

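The genes described here are the constitutive proteasome genes of mouse AE9a leukemia cells, measured in 2 single-cell RNA-sequencing libraries. They were chosen by symbol: a name starting with Psm, a letter from a to g and a digit, without the interferon-inducible catalytic subunits Psmb8, Psmb9 and Psmb10, without pseudogenes, and with at least 50 unique molecular identifiers (UMIs, each standing for 1 captured mRNA molecule) over all deposited barcodes. The rule matched 47 symbols and left 45 members out of 31053 genes in the files. It does not use any difference between groups. Psma8 with 2 UMIs and Psmb11 with 6 UMIs fell below the minimum, and Psme2b with 479 UMIs was the lowest member inside it. By role, the members are 14 subunits of the core particle (7 alpha and 7 beta), 17 subunits of the regulatory particle (6 base ATPases, 3 other base subunits and 8 lid subunits), 6 activators or inhibitors, 7 assembly factors, and Psmc3ip, which matches the symbol rule but is known as a cofactor of meiotic recombination and is kept apart.

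The proteasome is the main protease of the cytosol and nucleus and degrades proteins that carry ubiquitin chains. Its barrel-shaped core particle encloses the proteolytic sites between outer alpha rings and inner beta rings. Regulatory particles at the barrel's ends recognise ubiquitin, remove it, and unfold and feed in the substrate. Interferons induce alternative catalytic subunits and the Psme1 and Psme2 activator ring, which are known for shaping the peptides presented on MHC class I.

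The question addressed is what the loss of 1 Usp18 allele does to leukemia cells. Usp18 restrains signaling from the interferon receptor. Fetal liver cells carrying Usp18+/f and a tamoxifen-inducible Cre had been transduced with a retrovirus carrying AE9a, a truncated AML1/ETO fusion, and GFP, and the resulting leukemia was passed on to recipient mice. Sick recipients received oil (labelled Usp18+/f) or tamoxifen (labelled Usp18+/Δ), and GFP+Lin-c-Kit+ splenocytes were sorted 3 days after the first injection. Both groups therefore carry the floxed allele and the inducible Cre, which is expressed in all tissues. Tamoxifen, Cre activity and the deletion occur together in 1 group only and cannot be told apart. Each library holds the pooled cells of 3 mice, so n = 1 library per group. No test was possible, and every interval below covers counting error only.

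The libraries held 7281 and 7833 barcodes, of which 6546 and 7073 were kept, with 58068183 and 59503327 UMIs and medians of 8575.5 and 8023 UMIs per cell (Usp18+/f and Usp18+/Δ). Barcode sequences occurring in both libraries numbered 15, and 11 of them were among the kept cells of both. Levels are given as CPM, a gene's UMIs scaled to the library's total in the usual way. Usp18 itself was at 5.68 CPM under the label Usp18+/f and at 24.1 under the label Usp18+/Δ, a log2 ratio of 2.08 (95% interval 1.91 to 2.26). The mRNA was thus not lower under the label of the deletion. The counts come from 3′ ends, and which part of the gene is deleted is not given in the sources used here, so this level does not check the deletion. Isg15, an interferon-stimulated gene, was at 20.9 and 115.6 CPM (2.47, 2.38 to 2.55). All directions below rest on the labels. Kit, which was sorted for, was at 96.8 and 102 CPM. All 4 progenitor markers were detected in both libraries, with summed levels of 391 and 401 CPM. Macrophage markers (5 of 5 detected, 2.58 and 6.99), neutrophil markers (1 of 5 detected in both, 0.0344 and 22.5), B cell markers (2 of 4 in both), T cell markers (1 of 4 in both, Cd3d and Cd8a at 0), dendritic markers (Siglech and Flt3 at 0) and megakaryocyte markers (Ppbp at 0) summed to at most 22.5 CPM. Globin transcripts (4 of 4, 3884 and 4070) and mast cell or basophil markers (5 of 5, 558 and 598) were the exceptions.

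Proteasome transcripts took up almost the same share of both libraries. The 45 members summed to 7042 CPM (95% interval 7020 to 7064) in the Usp18+/f-labelled library and to 6963 (6942 to 6984) in the Usp18+/Δ-labelled one, which is 0.704% and 0.696% of all UMIs. The log2 ratio was -0.016 (-0.022 to -0.010), against a median of 0.00059 over all 5984 genes averaging 20 CPM or more. Levels are counts of captured 3′ ends, which do not scale with transcript length, so they were not divided by length. On this scale core members lay between 127 and 426 CPM, regulatory members between 91.1 and 330, and assembly factors between 39.7 and 75.3. Psme2b and Psmc3ip were below 20 CPM in both libraries. Counts of members past a fold cover those averaging 20 CPM or more in the cells compared, which are 43 unless another number is given.

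**Figure D1:**
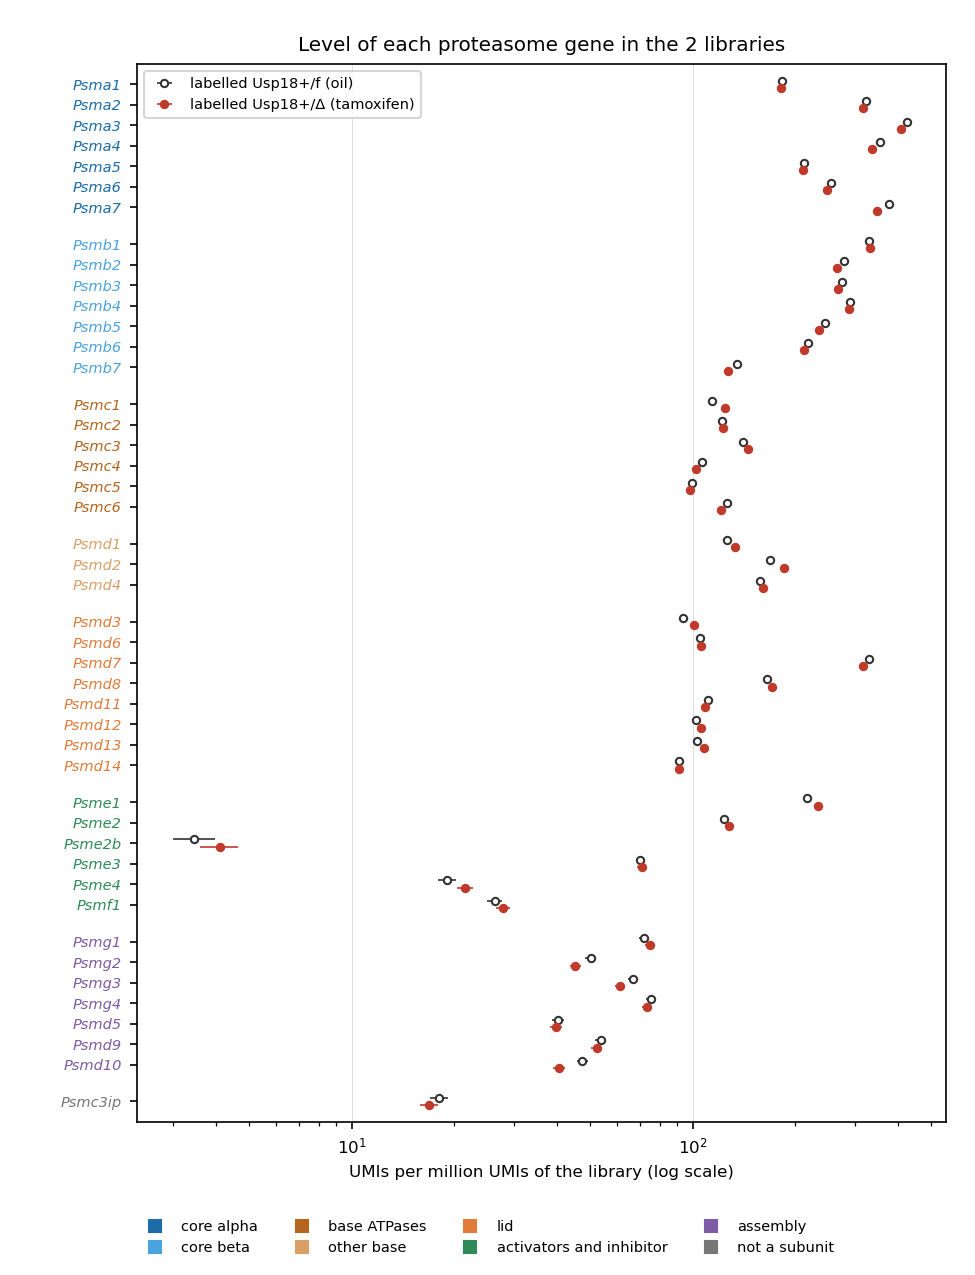
Level of each proteasome gene (rows, coloured by role) in CPM on a log axis, with exact Poisson 95% intervals; open circles are the library labelled Usp18+/f and filled circles the library labelled Usp18+/Δ. The core members sit together at 127 to 426 CPM, Psme2b sits lowest at 3.46 and 4.10, and the circles of a gene nearly coincide.

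A fold was fixed as a rule of size, a log2 ratio of at least 0.25 in either direction. No member passed it between the libraries, 0 of 43 higher and 0 of 43 lower, where 2.81% of all genes were higher and 1.65% lower by that fold. Within this narrow range the roles differed in direction. Core members were mostly lower in the library labelled Usp18+/Δ, and activators and the non-ATPase base subunits were higher.

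The core particle summed to 3896 CPM under the label Usp18+/f (3880 to 3912) and 3772 CPM under the label Usp18+/Δ (3756 to 3787). Its log2 ratio was -0.047 (-0.055 to -0.038), and 13 of 14 members were lower, with the counting interval below 0 for 9 of them. Of all genes, 50.2% were higher. Of the alpha subunits, which form the gated outer rings, 7 of 7 were lower, or 6 of 7 when mitochondrial, ribosomal protein and haemoglobin genes were left out of the total. Psma7 had the lowest ratio of the alpha subunits, with 376 and 348 CPM and a log2 ratio of -0.11 (-0.14 to -0.085). Psma1 had the highest, with 182 in both and a ratio of -0.0044 (-0.043 to 0.034). Of the beta subunits 6 of 7 were lower, and Psmb1 was the exception with 329 and 331 CPM (0.011, -0.018 to 0.040).

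The 3 catalytic beta subunits were all lower. Psmb5 (chromosome 14, 54614119 to 54618022, mm10), the chymotrypsin-like subunit, was at 244 and 234 CPM, a log2 ratio of -0.058 (-0.092 to -0.025). It was -0.21 (-0.29 to -0.13) in G1 cells and -0.34 (-0.46 to -0.22) in cells of 3000 to under 6000 UMIs, whereas the interval spanned 0 in S cells (-0.0024), G2M cells (-0.010) and cells of 6000 to 12000 UMIs (-0.016). Psmb6, the caspase-like subunit, was at 218 and 212, a ratio of -0.044 (-0.080 to -0.0088). Psmb7, the trypsin-like subunit and the lowest ratio of the beta group, was at 135 and 127, a ratio of -0.084 (-0.13 to -0.038). For each of these genes the counting intervals of the levels in the libraries lay close together, and a difference between pools of mice of this size could not be assessed.

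The regulatory particle summed to 2263 CPM (2251 to 2275) and 2301 (2289 to 2314), which is 0.024 on the log2 scale (0.013 to 0.035), with 11 of 17 members higher, a direction that turned to -0.013 with 8 of 17 higher by the mean of per-cell levels. Of the base ATPases, which unfold substrates, 3 of 6 were higher, or 2 of 6 by the mean of per-cell levels, from Psmc4 (107 and 102 CPM, -0.063, -0.11 to -0.012) to Psmc1 (114 and 124, 0.12, 0.077 to 0.17). The summed ratio of the ATPases was 0.0098 while their median was -0.0072.

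The other base subunits were higher in 3 of 3 cases. Psmd2 (chromosome 16, 20651652 to 20663414), a large scaffold subunit that binds ubiquitin-like proteins, had the highest ratio of the regulatory particle, with 169 and 186 CPM and a log2 ratio of 0.13 (0.094 to 0.17). Psmd4, a ubiquitin receptor, was at 157 and 161 (0.030, -0.012 to 0.072). Of the lid subunits, 5 of 8 were higher, or 3 of 8 by the mean of per-cell levels. They ran from Psmd7 (330 and 315, -0.065, -0.094 to -0.035) to Psmd3 (93.6 and 101, 0.11, 0.059 to 0.17). Psmd14, the deubiquitinase of the lid, was at 91.3 and 91.1, a ratio of -0.0029 (-0.058 to 0.052).

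**Figure D2:**
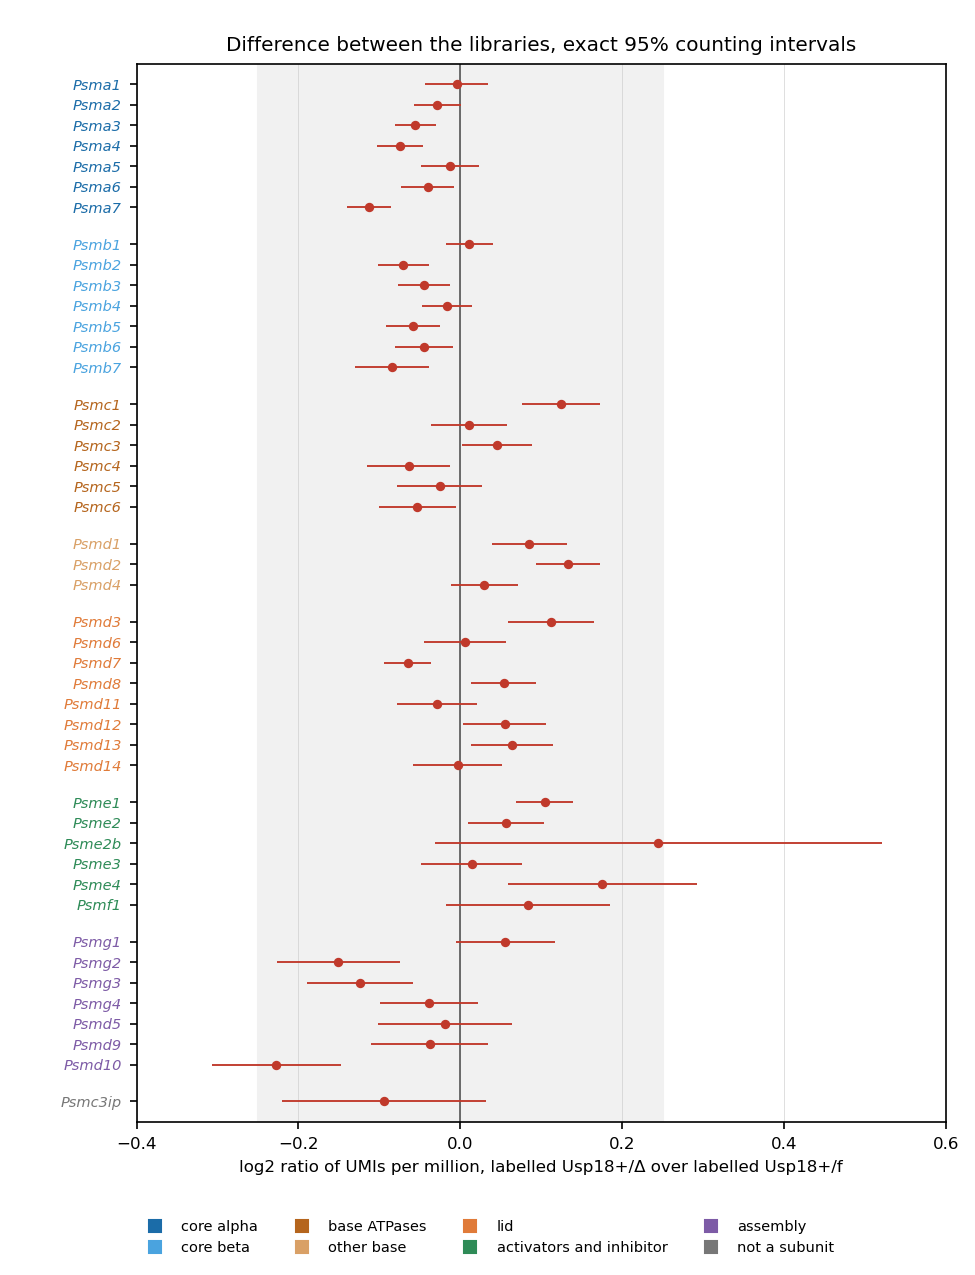
Log2 ratio of CPM, library labelled Usp18+/Δ over library labelled Usp18+/f, for each member with exact 95% counting intervals; the grey band marks log2 ratios within 0.25 of 0. Every point lies inside the band, Psma7 is lowest of the core at -0.11, Psmd10 is lowest of all at -0.23, and only intervals of Psme2b, Psme4 and Psmd10 reach beyond the band.

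The interferon-inducible activator ring had higher levels of both subunits under the label Usp18+/Δ. Psme1 (chromosome 14, 55578123 to 55581529, plus strand) was at 217 CPM (213 to 221) and 233 (229 to 237), and its log2 ratio was 0.10 (0.069 to 0.14). Psme2 (chromosome 14, 55587441 to 55591113, minus strand), its partner encoded nearby, was at 123 (121 to 126) and 128 (125 to 131), a ratio of 0.056 (0.0098 to 0.10). Psme2b, a copy of Psme2 on chromosome 11 whose reads may be shared with it, was at 3.46 and 4.10 (0.24, -0.031 to 0.52). The remaining members of this role were Psme3, Psme4 and Psmf1. Psme3, the nuclear activator, was at 70.3 and 71.0 CPM and had the lowest ratio of the role (0.014, -0.048 to 0.077). Psme4, a large single-chain activator, was at 19.03 and 21.5 (0.18, 0.058 to 0.29). Its ratio was the highest among those averaging 20 CPM or more, an average Psme4 reached only through the library labelled Usp18+/Δ. Psmf1, an inhibitor, was at 26.3 and 27.8 (0.084, -0.018 to 0.185). With the mean of per-cell levels, 5 of the 6 members of this role were higher instead of 6 of 6.

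The 3 interferon-inducible catalytic subunits, which are no members, were higher as well. Psmb8 had a log2 ratio of 0.12 (0.079 to 0.16), Psmb9 one of 0.042 (-0.0045 to 0.089) and Psmb10 one of 0.088 (0.041 to 0.13).

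The assembly factors had the lowest single values. Psmd10 (chromosome X, 140948429 to 140956728), known as gankyrin and a chaperone of the base, was at 47.5 CPM (45.8 to 49.4) and 40.6 (39.02 to 42.3), and its log2 ratio was -0.23 (-0.31 to -0.15). It was lower in the library labelled Usp18+/Δ in G1 cells (-0.18), S cells (-0.23) and G2M cells (-0.25), and in all 5 bins of interferon-stimulated gene counts described below, from -0.39 to -0.18, where the interval spanned 0 in the bins of 0 and of over 9. Psmg2, a chaperone of alpha ring assembly, was at 50.3 and 45.3 (-0.15, -0.23 to -0.075), and Psmg3 at 66.7 and 61.2 (-0.12, -0.19 to -0.058). Psmg1, the partner of Psmg2, was the highest of the role with 72.0 and 74.8 (0.056, -0.0055 to 0.12). Psmc3ip was at 18.0 and 16.9 (-0.094, -0.22 to 0.032).

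The promoters of the members that these comparisons turn on are shown from RefSeq (GRCm38.p6, the assembly also called mm10), with 110 bases before the start site and the first 20 transcribed bases. They are the activators Psme1 to Psme4, the catalytic Psmb5, and Psmd14. Capitals mark matches to any of the motifs searched on both strands: the ISRE-like GAAANNGAA of interferon response elements, the GAS motif TTCNNNGAA of STAT binding, which is its own reverse complement, the antioxidant response element TGACNNNGC, and CCAAT. In Psmd14, matches to CCAAT on opposite strands overlap.
Psme1, chr14:55578384-55578513, plus strand: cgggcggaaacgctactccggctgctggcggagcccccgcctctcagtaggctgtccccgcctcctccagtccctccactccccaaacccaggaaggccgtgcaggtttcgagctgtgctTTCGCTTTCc
Psme2, chr14:55591082-55591211, minus strand: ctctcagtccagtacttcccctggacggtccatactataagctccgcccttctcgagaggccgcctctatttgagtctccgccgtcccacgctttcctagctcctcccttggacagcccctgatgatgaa
Psme3, chr11:101316103-101316232, plus strand: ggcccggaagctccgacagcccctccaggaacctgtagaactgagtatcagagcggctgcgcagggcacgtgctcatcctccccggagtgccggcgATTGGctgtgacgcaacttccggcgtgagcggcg
Psme4, chr11:30771665-30771794, plus strand: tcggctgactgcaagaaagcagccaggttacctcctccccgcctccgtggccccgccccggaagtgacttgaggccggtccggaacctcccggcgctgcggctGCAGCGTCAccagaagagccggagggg
Psmb5, chr14:54617976-54618105, minus strand: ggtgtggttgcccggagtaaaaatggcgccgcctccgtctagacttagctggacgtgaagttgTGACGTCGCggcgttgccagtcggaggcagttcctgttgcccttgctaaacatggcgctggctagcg
Psmd14, chr2:61711584-61711713, plus strand: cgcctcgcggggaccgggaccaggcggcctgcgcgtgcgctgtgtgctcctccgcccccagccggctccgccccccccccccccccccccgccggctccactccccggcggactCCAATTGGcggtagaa

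Of the 45 members, 38 had a promoter window of 300 bases (250 before to 50 after the start) in the RefSeq table. The ISRE-like motif was found in 7 of the 38 members (Psmb3, Psmb4, Psmc2, Psmd4, Psme1, Psmg4 and Psmd9) and in 9.76% of all genes in the table (8.56% of its 32851 windows, as a gene can have several). In Psme1 it read TTCGCTTTC, the reverse orientation, at bases 11 to 19 of the transcript. The GAS motif was in 2 members (Psmd2 and Psmg1; 9.55% of genes, 8.30% of windows), the antioxidant response element in 6 (Psmb5, Psmb6, Psmc6, Psmd12, Psme4 and Psmd9; 13.99% and 12.4%) and CCAAT in 13 (41.1% and 37.4%). In Psmb5 the antioxidant response element read TGACGTCGC at 47 to 39 bases before the start. The Psme2 window held none of these letters. A match is a description of the sequence only.

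The members were next compared between interferon-high and other cells. Each cell was thinned to 3000 UMIs, and a cell was called interferon-high with more than 9 UMIs of a list of 42 interferon-stimulated genes (ISGs), a limit set at percentile 99 of cells labelled Usp18+/f. The list holds no proteasome or antigen-processing gene, and 41 of its genes are in the files. By this threshold 58 of 6090 cells (0.952%, 0.724 to 1.23%) labelled Usp18+/f were interferon-high, and 925 of 6723 (13.8%, 12.9 to 14.6%) labelled Usp18+/Δ. Without thinning the shares were 0.985% and 11.5%. In the library labelled Usp18+/Δ the interferon-high cells had a median of 6913 UMIs against 8477.5 in the others, and 60.4% against 27.5% were in G1. Their globin transcripts summed to 9576 CPM against 3200, and their mast cell or basophil markers to 869 against 477. Macrophage markers summed to 11.7 against 4.79 and neutrophil markers to 0.289 against 25.8. The part of these differences in the results below was not tested, except where values within a phase, within a depth or without globin-rich cells are given.

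In interferon-high cells of the library labelled Usp18+/Δ Psme1 and Psme2 were higher while the core and regulatory sums were lower. Of 43 members, 3 were higher past the fold (6.98%), where 13.8% of all genes were, and 4 were lower (9.30%), where 16.8% of all genes were. The higher members were Psme1, Psme4 and Psmd10, and the lower ones Psmd11, Psmg1, Psmg2 and Psmg3. The median over the 43 members was -0.10, against -0.017 over all 6039 genes.

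Psme1 was at 276 CPM in the 925 interferon-high cells and at 228 in the 5798 other cells, a log2 ratio of 0.275 (0.20 to 0.34). Psme2 was at 141 and 127, a ratio of 0.15 (0.055 to 0.25). Psme4 was at 26.9 and 20.8 (0.37, 0.13 to 0.59). Psme3 went the other way with 64.3 and 72.5 (-0.17, -0.32 to -0.031). Psmf1 was at 29.5 and 27.6, with an interval that spanned 0. The inducible catalytic subunit Psmb9 had a ratio of 0.26 (0.17 to 0.36), Psmb8 one of 0.18 (0.096 to 0.27) and Psmb10 one of 0.053 (-0.048 to 0.15).

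The core particle was lower in interferon-high cells, with 3629 against 3808 CPM (-0.069, -0.088 to -0.051). All 7 alpha subunits were lower, whereas the beta subunits divided into 3 higher and 4 lower, or 4 and 3 with median-of-ratios size factors, which turned their median from -0.017 to 0.00078. Psmb5 was the lowest core member, at 207 against 239 CPM (-0.21, -0.29 to -0.13), a difference seen in G1 cells (below) but not in S cells (-0.0075, -0.17 to 0.15) or G2M cells (-0.0033, -0.14 to 0.13). Psmb6 (207 and 214) and Psmb7 (126 and 128) had intervals that spanned 0.

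Over all phases the regulatory particle was lower by more than the core, with 2118 against 2338 CPM (-0.14, -0.17 to -0.12). Within G1 the regulatory and core ratios were close, with overlapping intervals (-0.13 and -0.12), and in G2M neither sum was lower (below). Over all phases 16 of 17 members were lower, where 47.5% of all genes were higher. Psmd11, a lid subunit, was at 92.8 and 112 (-0.27, -0.39 to -0.15). Psmc1 was at 108 and 127 (-0.24, -0.35 to -0.13). Psmd4 was the exception, with 163 and 160 and an interval spanning 0. Directions of the regulatory sum and of the core sum were negative under each of the 3 other scalings.

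Among the assembly factors, Psmg3 was at 47.6 and 63.3 CPM (-0.41, -0.58 to -0.25), Psmg2 at 37.8 and 46.6 (-0.30, -0.49 to -0.12) and Psmg1 at 63.5 and 76.6 (-0.27, -0.42 to -0.13). Psmd10 was higher, at 48.7 and 39.8 (0.29, 0.12 to 0.46), which is opposite to its direction between the libraries. Psmc3ip was at 11.98 and 17.7 (-0.56, -0.90 to -0.24), and Psme2b at 5.34 and 3.88 (0.46, -0.085 to 0.97).

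**Figure D3:**
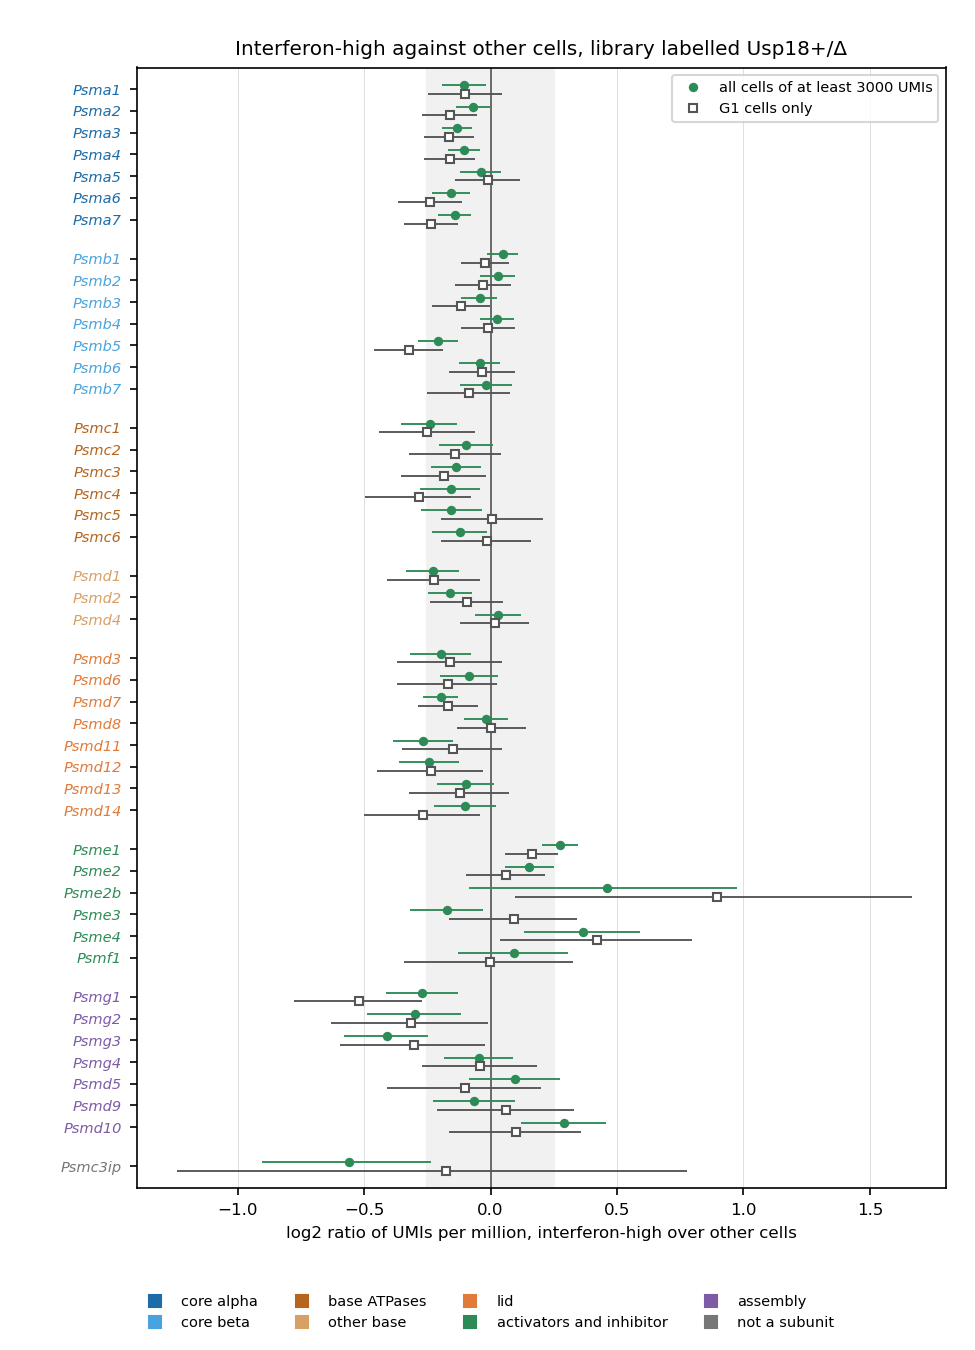
Log2 ratio of CPM, interferon-high over other cells of the library labelled Usp18+/Δ, with exact 95% counting intervals; filled circles are all cells of at least 3000 UMIs and open squares G1 cells only, and the grey band marks ratios within 0.25 of 0. Psme1 and Psme4 lie to the right in both sets of cells, most core and regulatory members lie slightly to the left, and Psmb5 moves from -0.21 to -0.32 in G1 cells.

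Because interferon-high cells were more often in G1, the comparison was repeated within phases. In G1 (559 interferon-high and 1595 other cells) Psme1 was at 294 and 262 CPM, a log2 ratio of 0.16 (0.055 to 0.27). For Psme2, 135 and 129 CPM gave an interval that spanned 0 (0.061, -0.096 to 0.22). The core was at 3334 and 3623 (-0.12, -0.15 to -0.089) and the regulatory particle at 1824 and 1994 (-0.13, -0.17 to -0.087). Psmb5 was at 166 and 207 (-0.32, -0.46 to -0.19), and Psmg1 at 47.6 and 68.3 (-0.52, -0.78 to -0.27). Psme4 was the only one of 43 members higher past the fold in G1 (0.42, 0.039 to 0.80), or 2.33% against 12.7% of all 5887 genes. Its levels were 25.6 and 19.1 CPM, so it reached the average of 20 CPM only through the interferon-high cells. Lower past the fold were Psmb5, Psmc1, Psmc4, Psmd14, Psmg1, Psmg2 and Psmg3, 7 of 43 (16.3%, against 13.4% of all genes). Psmd10 had a ratio of 0.10 in G1, with an interval from -0.16 to 0.36. Of the inducible subunits in G1, Psmb9 was at 0.10 (-0.044 to 0.25) and Psmb8 at 0.080 (-0.051 to 0.21), both spanning 0, and Psmb10 at 0.18 (0.021 to 0.35).

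In G2M cells (202 and 2675) the pattern differed. Psme1 was at 275 and 216 CPM (0.35, 0.22 to 0.47) and Psme4 at 31.7 and 20.7 (0.61, 0.22 to 0.98), while the core was slightly higher (0.043, 0.0098 to 0.075) and the regulatory particle was at 2453 and 2423 (0.018, -0.024 to 0.059). In S cells (164 and 1528) Psme2 had the larger ratio (0.28, 0.084 to 0.48) and Psme1 one of 0.064 (-0.10 to 0.22). In the library labelled Usp18+/Δ, Psme1 and Psme2 were thus higher in interferon-high cells in every phase, although the interval spanned 0 for Psme2 in G1 and G2M and for Psme1 in S. Under the label Usp18+/f, with 33 and 11 interferon-high cells in G1 and G2M, Psme2 was at -0.24 (-0.91 to 0.37) and -0.56 (-1.69 to 0.36), and with 14 in S it was at 0.64 (0.025 to 1.20), the only one of these intervals that excludes 0. The lower core and regulatory sums were not seen in G2M. With cells above 29 globin UMIs left out, an alternative chosen after seeing the data, Psme1 kept a ratio of 0.27 and the regulatory sum one of -0.11, and 1 member instead of 4 was lower past the fold.

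The library labelled Usp18+/f held 58 interferon-high cells, with 446034 UMIs in all. Psme1 was at 282 CPM in them and at 217 in the other 6032 cells, a log2 ratio of 0.38 (0.12 to 0.63). Psme2 was at 128 and 124 (0.047, -0.36 to 0.42). For the core (3780 and 3898) and the regulatory particle (2213 and 2264) the intervals spanned 0 (-0.044, -0.11 to 0.025, and -0.033, -0.12 to 0.058). The interval of the core includes the ratio of the other library, and that of the regulatory sum does not.

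Levels were then followed over bins of ISG UMIs per cell. Psme1 was at 203, 214, 219, 229 and 282 CPM in cells of the library labelled Usp18+/f with 0, 1 to 2, 3 to 5, 6 to 9 and over 9 ISG UMIs. The corresponding values in the library labelled Usp18+/Δ were 210, 228, 222, 239 and 276. In both libraries Psme1 was therefore highest in the top bin and lowest in the bin of 0, with log2 ratios between these bins of 0.48 (0.20 to 0.75) and 0.39 (0.19 to 0.61). The bins mix phases, and within G1 cells the ratios were 0.14 (-0.36 to 0.62) and 0.37 (-0.11 to 0.90), both spanning 0. Psme2 ran from 115 to 128 and from 120 to 141 between the same end bins. At an equal number of ISG UMIs the libraries differed little: the log2 ratio of Psme1, Usp18+/Δ over Usp18+/f, was 0.052, 0.091, 0.015, 0.060 and -0.034 over the bins, and only in the bin of 1 to 2 did the counting interval lie above 0 (0.017 to 0.16). The regulatory sum was higher in the library labelled Usp18+/Δ in the first 4 bins, by 0.046 to 0.083, each with an interval above 0, and was at -0.063 (-0.16 to 0.031) in the top bin.

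**Figure D4:**
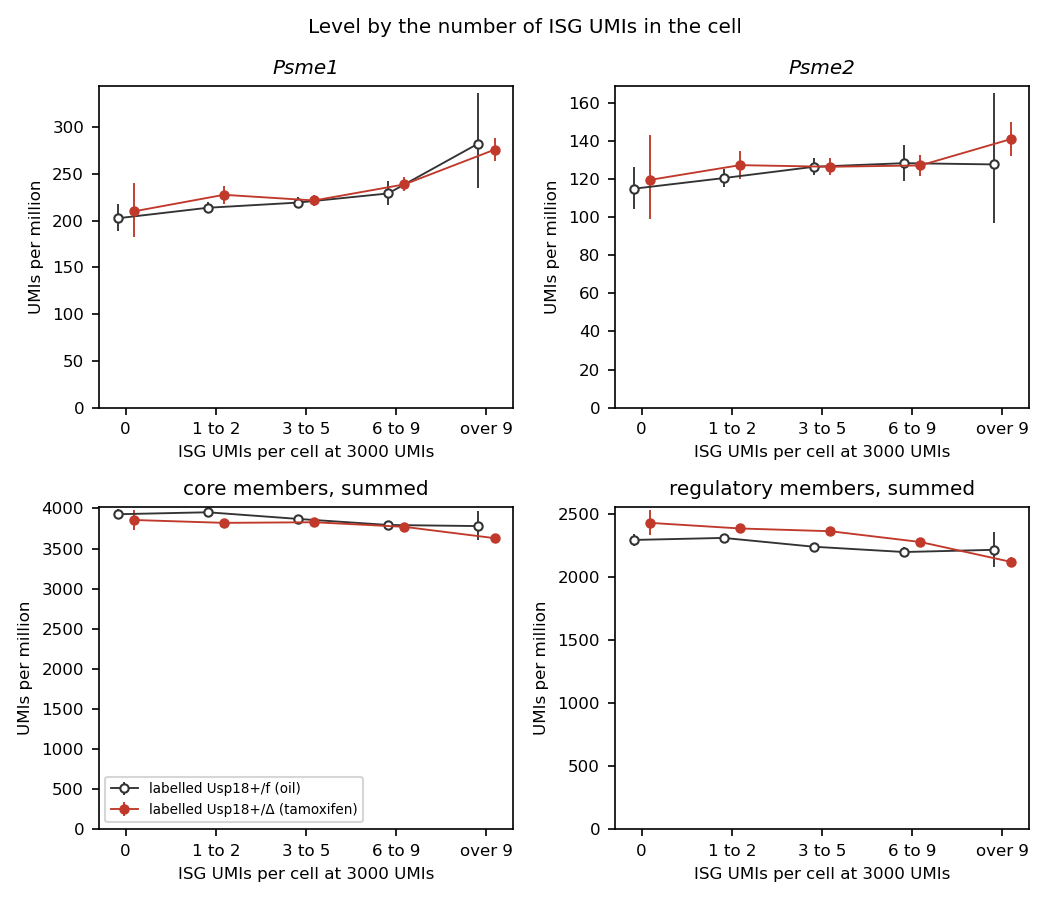
Level in CPM (vertical axes from 0) of Psme1, Psme2, the summed core and the summed regulatory members in cells binned by ISG UMIs at 3000 UMIs per cell, with exact Poisson 95% intervals; open circles are the library labelled Usp18+/f and filled circles the library labelled Usp18+/Δ. Between the end bins Psme1 goes from 203 to 282 and from 210 to 276, and the core from 3928 to 3780 (log2 ratio -0.055, -0.13 to 0.017, spanning 0) and from 3856 to 3629 (-0.087, -0.14 to -0.038).

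The exchange of catalytic subunits was described by the ratio of UMIs of each inducible subunit to those of its constitutive counterpart. Psmb8 to Psmb5 was 0.631 (0.615 to 0.648) under the label Usp18+/f and 0.715 (0.696 to 0.733) under the label Usp18+/Δ. Within the latter it was 0.904 (0.838 to 0.975) in interferon-high cells and 0.690 (0.672 to 0.710) in the others, and in G1 cells 1.17 (1.05 to 1.32) and 0.888 (0.834 to 0.945). Psmb9 to Psmb6 was 0.564 and 0.599 in the libraries, and 0.718 (0.663 to 0.779) against 0.581 (0.563 to 0.599) in interferon-high and other cells labelled Usp18+/Δ. In G1 cells these intervals overlapped (0.809, 0.719 to 0.911, and 0.736, 0.687 to 0.788), and under the label Usp18+/f the ratio was 0.529 (0.373 to 0.743) against 0.565 (0.549 to 0.582). Psmb10 to Psmb7 was 0.901 (0.872 to 0.931) and 1.01 (0.983 to 1.05) in the libraries, while interferon-high and other cells had overlapping intervals (1.06, 0.965 to 1.16, and 1.01, 0.976 to 1.04). In G1 cells they were further apart but still overlapped (1.07, 0.934 to 1.23, and 0.888, 0.819 to 0.963), as they did under the label Usp18+/f (1.30, 0.896 to 1.88, and 0.899, 0.870 to 0.929). In the first pair Psmb8 was at 187 against 165 CPM and Psmb5 at 207 against 239 over all phases, whereas in G1 the interval of Psmb8 spanned 0 (194.5 and 184.0 CPM) and that of Psmb5 did not. Under the label Usp18+/f this ratio was 0.804 (0.594 to 1.09) in interferon-high cells and 0.628 (0.611 to 0.645) in the others, with overlapping intervals.

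The members also differed by cell cycle phase. Phases came from scores of S and G2M genes, none of which is a member. G2M cells had a median of 10709 and 10168 UMIs and G1 cells 6495 and 5990 (Usp18+/f and Usp18+/Δ), and the part of this depth in the differences was not tested. In the library labelled Usp18+/f, 14 of 42 members were higher in G2M past the fold (33.3%, against 28% of all genes) and 0 were lower (against 23.9%). In the library labelled Usp18+/Δ, 20 of 43 were higher (46.5%, against 31.6%) and 2 were lower (4.65%, against 25.7%). The medians over members were 0.16 and 0.22, and over all genes 0.021 and 0.028.

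The regulatory sum was higher in G2M cells of both libraries. It was at 1969 CPM in G1 and 2331 in G2M in the library labelled Usp18+/f (0.24, 0.22 to 0.27), and at 1952 and 2425 in the other (0.31, 0.29 to 0.33). Psmd14 went from 70.3 to 99.1 and from 69.0 to 101 (0.50 and 0.55), and Psmc1 from 90.04 to 125 and from 99.9 to 138 (0.47 in both). Psme3 had the highest ratios among members at or above 20 CPM, from 49.4 to 75.2 and from 50.2 to 79.6 (0.61 and 0.66). The core sum differed less, by 0.089 (0.073 to 0.11) and 0.091 (0.076 to 0.11). Psme1 was lower in G2M, with 234 in G1 and 210 in G2M (-0.15, -0.22 to -0.087) and 270 and 220 in the other library (-0.29, -0.35 to -0.23), and Psmd10 was lower by -0.20 and -0.27. Psmc3ip, the gene that is no subunit, went from 5.09 to 19.1 and from 3.92 to 19.6 (1.91 and 2.32).

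**Figure D5:**
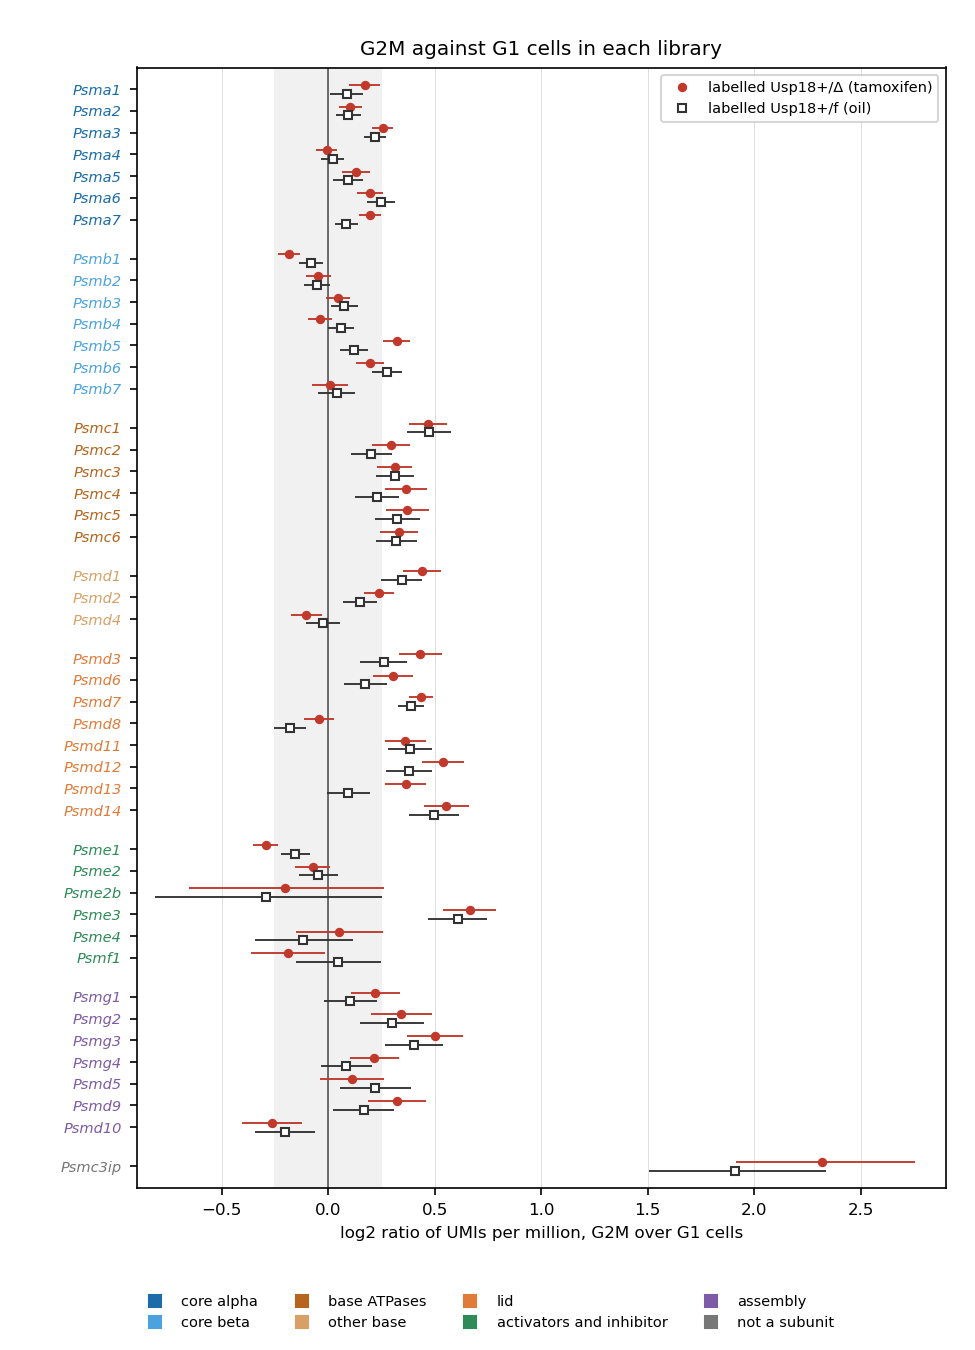
Log2 ratio of CPM, G2M over G1 cells, with exact 95% counting intervals; filled circles are the library labelled Usp18+/Δ and open squares the library labelled Usp18+/f, and the grey band marks ratios within 0.25 of 0. Base ATPases, most lid subunits, Psme3 and Psmg3 lie to the right in both libraries, Psme1 and Psmd10 lie to the left, and Psmc3ip lies at 1.91 and 2.32.

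The difference between the libraries itself varied with phase. Psme1 was at 234 and 270 CPM in G1 cells (0.21, 0.13 to 0.28), at 223 and 228 in S cells (0.032, -0.038 to 0.10) and at 210 and 220 in G2M cells (0.069, 0.020 to 0.12). The regulatory sum had ratios of -0.013 in G1, 0.048 in S and 0.057 in G2M. Of the cells of at least 3000 UMIs, 25.9% and 32.0% were in G1. Whether the differences between phases exceed those between mice was not tested.

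Depth and mitochondrial share moved with the sums as well. Cells of 3000 to under 6000 UMIs had core sums of 3468 and 3160 CPM, and cells of over 12000 UMIs 4068 and 3962. The shallowest cells, below 3000 UMIs, differed most between the libraries, with 3804 in 456 cells and 2586 in 350 cells (-0.56, -0.64 to -0.47). Their median mitochondrial share was 1.12% and 5.18%, and its part in this difference was not tested. Between 6000 and 12000 UMIs the core ratio was -0.010 (-0.021 to 0.00058) and the regulatory ratio 0.064 (0.050 to 0.078). The direction of the regulatory sum depended on depth, with -0.12 (-0.16 to -0.084) from 3000 to under 6000 UMIs and -0.57 (-0.68 to -0.46) below 3000. Cells with at most 5% mitochondrial UMIs had core sums of 4234 and 3913.

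Per cell, at 3000 UMIs, the members together had a median of 20 UMIs in each library, with 5th and 95th percentiles of 12 and 31 (labelled Usp18+/f) and of 11 and 32 (labelled Usp18+/Δ). The variance over cells was 1.74 and 1.96 times the mean. For Psme1 and Psme2 together it was 1.06 and 1.11 times the mean, with means of 1.03 and 1.10 UMIs per cell.

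The rest of the pathway was followed in a list of 22 genes, of which 20 are in the files. Among them are Pomp, associated deubiquitinases (Usp14, Uchl5), ubiquitin genes and shuttling factors such as Ubqln1. Also listed are the transcription factors Nfe2l1 and Nfe2l2 with the Nfe2l1-processing enzymes Ddi2 and Ngly1. Adrm1 and Sem1 are regulatory particle subunits whose symbols do not match the rule, so the regulatory sums leave them out. Between the libraries Sem1 was at 358 and 329 CPM (-0.12, -0.15 to -0.094). Adrm1 was at 42.9 and 45.7 CPM (0.092, 0.013 to 0.17). Between the libraries 0 of 20 were higher past the fold, where 2.81% of all genes were. Pomp, the maturation factor of the core, was at 275 and 273. Nfe2l1, known to drive proteasome genes, was at 19.4 and 21.8 (0.17, 0.056 to 0.29). In interferon-high cells the polyubiquitin gene Ubb was higher past the fold (1408 and 1173 CPM, 0.26, 0.23 to 0.29). Lower were Uchl5 (93.0 and 122, -0.39, -0.51 to -0.28) and Ddi2 (28.6 and 36.4, -0.35, -0.57 to -0.14). The list's summed ratio there was 0.015 while its median was -0.085.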

How the data were processed

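Per the labels and the methods of the study, libraries were made with the 10x 3′ kit (version 3), and Cell Ranger 3.0.2 with mm10 gave the deposited counts, UMIs per gene and barcode for 31053 genes. The authors went on with Seurat, whose output was not used here. The counts are raw and were not normalized. From them, 6886 and 7406 barcodes passed a minimum of 500 genes and a mitochondrial share of no more than 10%. Scrublet's automatic threshold marked 0.0436% and 0.0270% of these, too few to have worked, so the cells with the top 5% of doublet scores were removed instead (340 and 333). UMIs were summed over cells and divided by the library's total. Levels have exact Poisson 95% intervals, ratios exact conditional ones and shares of cells Clopper-Pearson ones. These cover counting error only, since UMIs of 1 pooled library are no replicates. In a library, 0 UMIs of a gene would allow up to 0.0517 or 0.0504 CPM (3 counts). Phases came from scanpy 1.11.5, and the calculations used Python 3.11.15, numpy 2.4.6, scipy 1.17.1, pandas 2.3.3, anndata 0.12.19 and matplotlib 3.10.9. The ratio calculation was tested on simulated data.

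Counts past a fold use genes averaging 20 CPM or more. Named with values are Psme1, Psme2, Psmb5, Psmb6 and Psmb7, the members with the highest and lowest ratio between libraries in each role, members past the fold, and members below 20 CPM. Psmd14, Psmd12 and the other members outside this rule were chosen after their values were seen. Members and lists were chosen with earlier results of these data known. Mx2, Paaf1 and Ecpas matched no symbol in the files. The upper ISG bins were planned as 6 to 10 and over 10 and were drawn at the threshold of 9 instead. Alternatives covered doublets, mitochondrial share, scaling, fold, interferon threshold, thinning, depth and phase. Some genes and a construct name are not reported here.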

Additional observations from a re-analysis of the deposited data

Results flagged for a closer look

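Psmd12, a lid subunit, had opposite ratios in the 2 libraries when interferon-high cells were set against other cells. Under the label Usp18+/Δ the log2 ratio was -0.24 with a counting interval from -0.36 to -0.12 (91.8 and 109 CPM, 925 and 5798 cells), and in the library labelled Usp18+/f it was 0.43, from 0.041 to 0.79 (137 and 102, 58 and 6032 cells). By phase the ratio under the label Usp18+/Δ was -0.24 in G1 (-0.45 to -0.028), 0.030 in S (-0.21 to 0.26) and -0.072 in G2M (-0.27 to 0.12). Under the label Usp18+/f it was 0.93 in the 33 G1 cells (0.37 to 1.43), with intervals spanning 0 in S and G2M. The difference between the libraries was not tested, because each group is 1 library and cells are not replicates. Psmd12 was picked out for these opposite signs from all members.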

How the results depend on the processing

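The ratios of Psme1 and Psme2 were above 0 under the alternatives run, 11 between libraries (Psme1 0.0322 to 0.2089, Psme2 0.0383 to 0.1156) and 15 between interferon-high and other cells (0.0636 to 0.3479 and 0.0614 to 0.2849). Intervals spanned 0 for Psme1 in S cells in both comparisons and in interferon-high cells at the low mitochondrial share, and for Psme2 between libraries in each phase, in interferon-high cells in G1 and G2M, and in both comparisons at the low mitochondrial share. Between libraries Psme2 was at -0.050 in cells of 3000 to under 6000 UMIs and at -0.013 in the bin of 6 to 9 ISG UMIs, both spanning 0. The core ratio stayed below 0 between libraries and was above 0 only in G2M in the other comparison. The cause of the shifts below was not tested. All values are log2 ratios or counts of members past the fold. The counts are of 43 members, or of 44 in S cells (both comparisons) and in G2M cells for interferon-high cells. For these alternatives the share of all genes past the fold was taken only for interferon-high cells in G1, given above. Counts under the others have no such share beside them and are not read as results about the members.

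Between libraries, cells with at most 5% mitochondrial UMIs gave core -0.1136, regulatory -0.117 (reversed), Psme1 0.2013, Psme2 0.1156, and 1 member higher and 4 lower. The mean of per-cell levels gave core -0.0692, regulatory -0.0128 (reversed) and 1 member lower. A total without mitochondrial, ribosomal protein and haemoglobin genes gave core -0.0378. A fold of 0.15 gave 1 higher and 2 lower. Chosen after seeing the data were cells of 1 phase, cells of at least 3000 UMIs, cells without barcodes found in both libraries, and the globin alternative. G1 cells gave regulatory -0.0129 (reversed) and Psme1 0.2089. S cells gave core -0.008, regulatory 0.0483, Psme1 0.0322 and 1 higher. G2M cells gave regulatory 0.0572 and Psme1 0.0691.

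For interferon-high cells, at most 5% mitochondrial UMIs gave core -0.1349, Psme1 0.186, 1 higher and 10 lower. The mean of per-cell levels gave core -0.0909, regulatory -0.1846 and 10 lower. A fold of 0.15 gave 15 lower. The 95th percentile gave regulatory -0.1116, 0 higher and 1 lower. Thinning to 1500 UMIs gave 1 higher. Another thinning seed moved the threshold to 10 UMIs and left 744 interferon-high cells, with core -0.1012, regulatory -0.1762 and 8 lower. G1 cells gave core -0.12, Psme1 0.1622, 1 higher and 7 lower. S cells gave core -0.0289, regulatory -0.0638, Psme1 0.0636 and Psme2 0.2849. G2M cells gave core 0.0426 and regulatory 0.0177 (both reversed), Psme1 0.3479, 5 higher and 0 lower. Cells of 6000 to 12000 UMIs gave core -0.0294, regulatory -0.0874 and 2 lower. Without the cells highest in globin UMIs (above 29), core was -0.0492, regulatory -0.1093 and 1 lower.

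Median-of-ratios size factors set the median of all genes, 0.00059 between libraries and -0.017 in interferon-high cells, to 0. No paired analysis was possible because 1 library stands for each group, without any test. Members below 20 CPM have wide intervals, and the 58 interferon-high cells of the library labelled Usp18+/f limit every ratio within it.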
